A study of Mus musculus with 33 samples.

Results

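CD69+CD103+ CD8 T cells taken from mouse skin on day 2 of an allergic reaction were compared, over all genes, with another CD8 T cell subset taken from the same kind of skin on the same day. The comparison uses 4 of the 33 libraries of the series, 2 for each subset. The CD69+CD103+ cells have the header code 1_03. The subset set against them has the code 1_02 and is 1 of the 3 other day 2 subsets sorted by CD69 and CD103. The headers do not say which of these it is, and no identity was read from its values. All day 2 cells came from wild-type C57BL/6 mice that had been sensitized to the hapten dinitrofluorobenzene (DNFB), challenged with it and given no treatment. The other 2 day 2 subsets (codes 1_04 and 1_05, 2 libraries each) and 8 libraries of CD69+CD103+ resident memory T cells (TRM) from day 11 and day 42 were used to set levels side by side. Those 8 came from mice of the same strain and hapten protocol, treated with acetone or with TA, a topical glucocorticosteroid. The series asked how TA acts on TRM in allergic contact dermatitis, a skin reaction driven by CD8 T cells.

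CD103 is the alpha chain (gene Itgae) of an integrin that binds E-cadherin on epithelial cells, and TGF-beta is known to induce it in T cells that enter the epidermis. CD69 holds lymphocytes in tissue by removing the sphingosine-1-phosphate receptor S1PR1 from their surface. Together they mark TRM in settled skin, and on day 2 after a challenge they mark cells in inflamed skin that may or may not stay. CD8 effector cells act through granzymes and perforin, through interferon gamma (Ifng) and through chemokines such as CCL5, CCL3 and CCL4.

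Library totals were 11532881 and 11395588 counts in the CD69+CD103+ libraries, against 3384434 and 5343645 counts in the 1_02 libraries. The 1_02 libraries were thus the shallower pair. Mitochondrial transcripts took 3.98% and 3.71% of counts in CD69+CD103+ libraries, against 3.26% and 2.66% in 1_02 libraries. The correlation of log2 CPM (counts scaled to library size) was 0.93 between the CD69+CD103+ libraries and 0.872 between the 1_02 libraries, and it ran from 0.88 to 0.901 between libraries of the 2 subsets. Of 14 tested genes of the T cell receptor complex and CD8 lineage, among them Cd8a, Cd3e and Lck, 0 were called by edgeR or DESeq2 (1 higher at an unadjusted edgeR p under 0.05), and their summed level was 12600 and 12000 CPM in CD69+CD103+ libraries, against 12600 and 12100 CPM in 1_02 libraries. The labels do not say whether the 2 libraries of a subset are from different animals, and the p-values rest on the spread between libraries of 1 code, estimated in common over the 8 codes fitted, which may be technical. In bulk samples, fewer cells of a type and less RNA per cell cannot be told apart.

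A gene was called where the quasi-likelihood F test of edgeR gave a Benjamini-Hochberg adjusted p under 0.05. Of 12236 genes tested, 29 (0.237%) were called, 25 (0.204%) higher and 4 (0.0327%) lower in CD69+CD103+ cells. The 4 lower genes were Ccl5, Ifng and Gzma, which effector CD8 T cells express, and the globin gene Beta-s. The marker lists of keratinocytes, mononuclear phagocytes and neutrophils held 30, 26 and 9 of the genes tested. Of the 25 higher genes, 12 were members of these lists. The other 13 included Itgae, the gene of CD103, and Gpr56, Cd7, Klrb1b and Fcer1g. At an unadjusted edgeR p under 0.05, 589 genes (4.81%) were higher and 179 (1.46%) lower. Counts of list members at that level, given below, stand beside these shares. DESeq2, with 10820 genes given an adjusted p, called 72 higher (0.665%) and 16 lower (0.148%). The median log2 fold change over all genes tested was 0.06. The CD69+CD103+ libraries stood above both 1_02 libraries for 2646 genes (21.6%) and below both for 1561 genes (12.8%), so that libraries that do not overlap are common in this comparison. No called gene overlapped between the subsets, and the rule for naming genes asked for this. Where a lack of overlap is given for a called gene below, it describes the values and adds no support to the call.

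**Figure D1:**
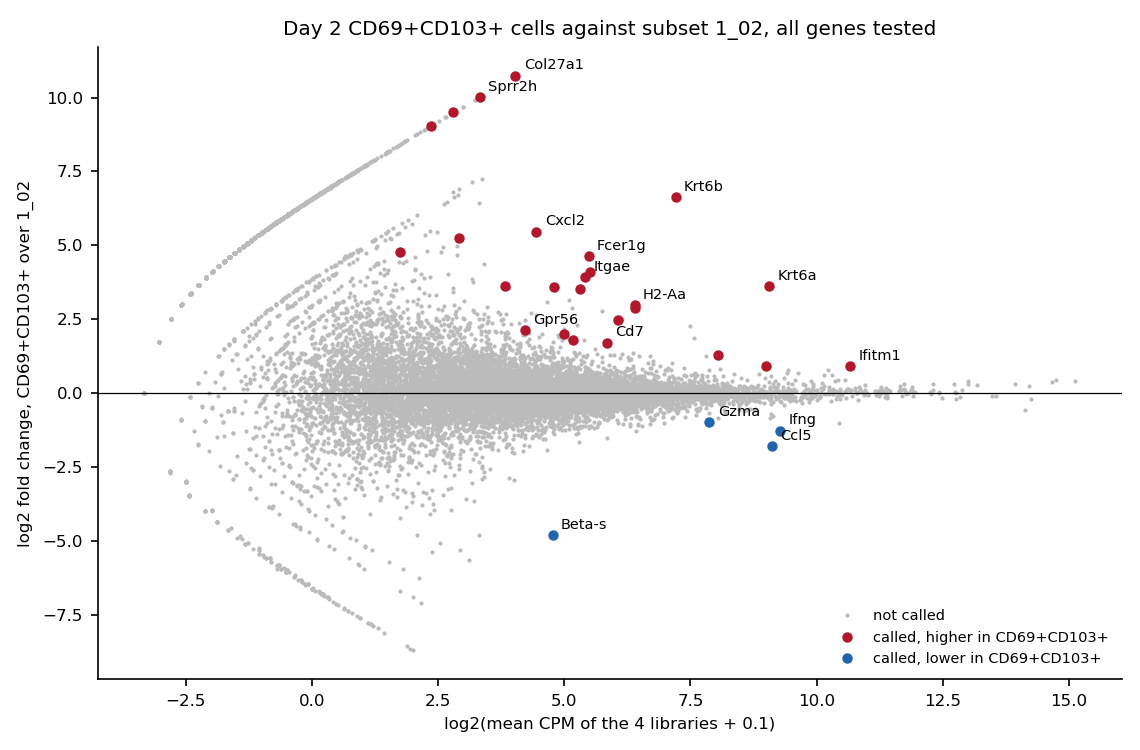
Log2 fold change (day 2 CD69+CD103+ over 1_02, y axis) against log2 of the mean CPM of the 4 libraries plus 0.1 (x axis) for the 12236 genes tested; red points are the 25 genes called higher and blue points the 4 called lower. Ccl5, Ifng and Gzma lie below the band at moderate to high levels, and the curved line of points at the top left holds genes with no count in 1_02, such as Sprr2h and Col27a1.

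Of the 2 genes whose proteins were used in the sort, Itgae differed and Cd69 did not pass the test. Itgae (ENSMUSG00000005947.11; GRCm38, chromosome 11, 73090583 to 73147446, plus strand) had 70.7 and 88.7 CPM in CD69+CD103+ libraries, against 7.35 and 3.60 CPM in 1_02 libraries. The CD69+CD103+ libraries were the higher ones without overlap. The log2 difference was 3.92 ± 0.44 (SE, n = 2 libraries each, edgeR adjusted p = 0.000341). Since CD103 was used in the sort, this value is a description of the sorted cells. Cd69 had 528 and 370 CPM in CD69+CD103+ libraries and 415 and 388 CPM in 1_02 libraries, with overlapping values. Its log2 difference was 0.16 ± 0.21 (edgeR adjusted p = 1). Levels of Itgae in the other libraries were 5.32 and 1.07 CPM in 1_04, 92.5 and 77.1 CPM in 1_05, and 192 to 373 CPM (median 270) in the 8 TRM libraries of day 11 and day 42.

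Ccl5, Ifng and Gzma were lower in CD69+CD103+ cells than in the 1_02 subset, by about 3.44-fold, 2.40-fold and 1.97-fold in mean CPM. Ccl5 encodes a chemokine that memory and effector CD8 T cells make and that draws other leukocytes. It had 279.8 and 219.5 CPM in CD69+CD103+ libraries, against 949.7 and 766.9 CPM in 1_02 libraries. Both CD69+CD103+ libraries lay far below the lower 1_02 library. The log2 difference was -1.78 ± 0.20 (edgeR adjusted p = 0.000341).

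Ifng encodes interferon gamma, the cytokine that drives MHC and chemokine genes in skin cells. It had 353 and 381 CPM in CD69+CD103+ libraries, against 825 and 933 CPM in 1_02 libraries, with no overlap. Its log2 difference was -1.26 ± 0.25 (edgeR adjusted p = 0.0422). Gzma, which encodes the granule protease granzyme A, had 170 and 147 CPM in CD69+CD103+ libraries, against 309 and 314 CPM in 1_02 libraries. These groups did not overlap either, and the log2 difference was -0.98 ± 0.18 (edgeR adjusted p = 0.0336). When any single library of the 4 was left out, the calls of Ifng and Gzma ended (edgeR adjusted p from 0.1 to 0.332 for Ifng and from 0.098 to 0.577 for Gzma), while Ccl5 kept its call (0.000339 to 0.00782). In the fit without the genes of other cell types the log2 differences were -1.78 for Ccl5, -1.26 for Ifng and -0.97 for Gzma, with edgeR adjusted p of 0.000353, 0.0767 and 0.0666.

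**Figure D2:**
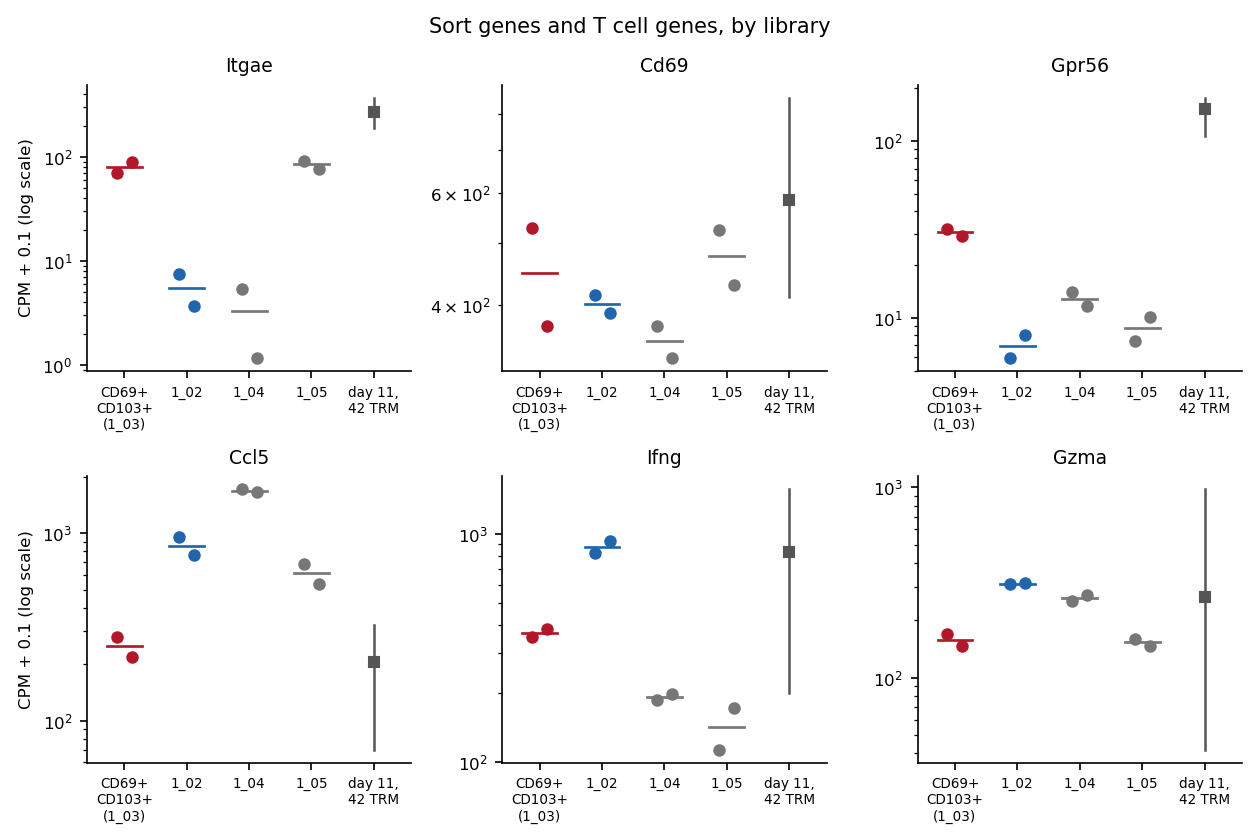
CPM plus 0.1 on a log scale (y axis) of the sort genes Itgae and Cd69 and of Gpr56, Ccl5, Ifng and Gzma in each library; points are libraries and short lines means of 2 for CD69+CD103+ (red), 1_02 (blue), 1_04 and 1_05 (grey), and the square and line at the right are the median and range of the 8 TRM libraries of day 11 and day 42. Ccl5, Ifng and Gzma lie lower in CD69+CD103+ than in 1_02 libraries, and Gpr56 lies higher, with no overlap.

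The promoters of Ifng and Gzma are shown, and those of Sprr1b and Sprr2h. Sprr1b and Sprr2h encode small proline-rich proteins of the keratinocyte envelope and were higher in CD69+CD103+ libraries. Of the 29 called genes, 20 had an entry in the RefSeq promoter table (GRCm38.p6) under the symbol used in the counts. The 4 shown were picked without a rule, and matches in the others are not given. The 250 bases before each start are given 5′ to 3′ on the strand of the gene. The letters TGANTCA and TATAAA (the TATA box) are in capitals where either strand held them. TGANTCA, with any base at N, is a looser form of the AP-1 motif, which has C or G there. The windows are chr10:118440796-118441045 (plus strand) for Ifng, chr13:113100982-113101231 (minus strand) for Gzma, chr3:92438780-92439029 (minus strand) for Sprr1b and chr3:92385435-92385684 (plus strand) for Sprr2h.
Ifng: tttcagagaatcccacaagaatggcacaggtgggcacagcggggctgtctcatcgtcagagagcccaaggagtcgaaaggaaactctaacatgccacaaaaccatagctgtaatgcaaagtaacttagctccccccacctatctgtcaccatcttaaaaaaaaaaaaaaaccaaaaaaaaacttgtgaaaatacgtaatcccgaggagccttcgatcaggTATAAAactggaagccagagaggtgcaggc
Gzma: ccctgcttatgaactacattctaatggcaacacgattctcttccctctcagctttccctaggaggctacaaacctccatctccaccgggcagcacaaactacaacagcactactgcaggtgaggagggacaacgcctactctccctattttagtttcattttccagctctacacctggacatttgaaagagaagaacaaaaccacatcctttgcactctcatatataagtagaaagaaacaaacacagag
Sprr1b: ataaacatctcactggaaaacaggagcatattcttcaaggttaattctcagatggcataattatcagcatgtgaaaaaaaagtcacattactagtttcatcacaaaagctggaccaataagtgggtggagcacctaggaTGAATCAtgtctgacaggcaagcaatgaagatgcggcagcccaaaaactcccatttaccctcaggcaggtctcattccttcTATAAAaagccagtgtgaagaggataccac
Sprr2h: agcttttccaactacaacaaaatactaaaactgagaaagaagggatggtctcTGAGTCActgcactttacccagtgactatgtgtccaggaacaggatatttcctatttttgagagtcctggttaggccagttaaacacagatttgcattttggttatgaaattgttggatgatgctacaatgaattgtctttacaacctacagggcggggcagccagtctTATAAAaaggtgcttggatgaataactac
The Sprr1b and Sprr2h windows each held 1 TGANTCA match, 111 and 198 bases before the start, and the Ifng and Gzma windows held 0. The match was TGAATCA in Sprr1b, with A at N, and TGAGTCA in Sprr2h, with G at N. A TATA match began 30 bases before the start in Ifng and in Sprr1b and 29 bases before it in Sprr2h. Among 32851 promoter windows of this length, 6.75% held the TGANTCA letters and 12.4% the TATA letters.

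Of 8 tested genes of the T cell chemokine list, 1 was lower (Ccl5) and 0 were higher, with a median log2 fold change of 0.29. DESeq2 called 3 of them lower (Ccl5, Ccl4 and Ccl3), and at an unadjusted p under 0.05 edgeR gave 3 lower and 3 higher. Ccl4, which draws T cells and monocytes, had 1005 and 849 CPM in CD69+CD103+ libraries, against 1890 and 1793 CPM in 1_02 libraries, a log2 difference of -0.99 ± 0.21 (edgeR adjusted p = 0.0779). Ccl3, which draws similar cells, had 409 and 363 CPM in CD69+CD103+ libraries, against 878 and 507 CPM in 1_02 libraries (log2 -0.84 ± 0.25, edgeR adjusted p = 0.368). Neither gene overlapped between the subsets. Ccl3 and Ccl4 are close copies, and reads shared between them make both values uncertain. Of the 8 genes of the list, 5 had positive log2 fold changes and 3 negative ones. Cxcl9 had the highest value (1.955) among the 7 members at a mean of 10 CPM or more and was not called. Also positive was Cxcl10, at 142 and 148 CPM in CD69+CD103+ libraries against 79.0 and 43.9 CPM in 1_02 libraries (edgeR adjusted p = 0.511). Ccl1, positive too, had 131 and 136 CPM in CD69+CD103+ libraries, against 79.6 and 67.6 CPM in 1_02 libraries (edgeR adjusted p = 0.702).

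Of 18 tested genes of cytotoxic granules and killing, 1 was lower (Gzma) and 0 higher, DESeq2 called 1 lower, and at an unadjusted p under 0.05 edgeR gave 3 lower and 0 higher. Positive log2 fold changes were found for 6 and negative ones for 12. Summed over the list, levels were 30400 and 27400 CPM in CD69+CD103+ libraries, against 39500 and 34800 CPM in 1_02 libraries, without overlap. A large part of these sums, and of the gap between the subsets, came from the single gene Gzmb. The median log2 fold change of the list was -0.22, beside 0.06 over all genes. Gzmb, which encodes granzyme B, had 14633 and 13992 CPM in CD69+CD103+ libraries, against 22799 and 19911 CPM in 1_02 libraries (log2 -0.58 ± 0.19, edgeR adjusted p = 0.518). The values did not overlap but missed the threshold. Several granzyme genes related to Gzmb are alike in sequence, so reads may be split among them. Of 22 cytokine genes, 1 was lower (Ifng) and 0 higher, with a median of 0.11. Il3, a growth factor gene of activated T cells, had 78.7 and 43.0 CPM in CD69+CD103+ libraries, against 11.0 and 2.74 CPM in 1_02 libraries (log2 3.17 ± 1.02, edgeR adjusted p = 0.492). Il13, a cytokine of type 2 responses, had 97.6 and 109 CPM in CD69+CD103+ libraries, against 58.5 and 66.0 CPM in 1_02 libraries (edgeR adjusted p = 0.899). Tnf had 36.0 and 30.9 CPM in CD69+CD103+ libraries and 37.3 and 15.1 CPM in 1_02 libraries, with overlapping values.

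Several other genes called higher in CD69+CD103+ cells are known from lymphocytes, though few members of the lymphocyte marker lists were called: 1 (Fcer1g) of 8 tested natural killer and innate lymphoid markers, and 0 of the 14 CD8 lineage genes above. Gpr56, Cd7, Klrb1b, Ifitm1, Ifitm2 and Nfic fall outside the rule for naming genes and are named after their values were seen. Gpr56 (current symbol Adgrg1; chromosome 8 in the deposited table) encodes an adhesion receptor of cytotoxic lymphocytes. It had 31.7 and 29.0 CPM in CD69+CD103+ libraries, against 5.82 and 7.89 CPM in 1_02 libraries, without overlap. The log2 difference was 2.12 ± 0.31 (edgeR adjusted p = 0.00371). The call held when any single library of the 4 was left out and ended in the fit on the 8 day 2 libraries alone (edgeR adjusted p = 0.216). In the 8 TRM libraries of day 11 and day 42 it ran from 107 to 176 CPM.

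Fcer1g encodes the signalling chain that activating receptors of natural killer, mast and myeloid cells share. It had 102 and 69.4 CPM in CD69+CD103+ libraries, against 6.43 and 1.03 CPM in 1_02 libraries (log2 4.65 ± 0.78, edgeR adjusted p = 0.0215). The lower CD69+CD103+ library lay far above the higher 1_02 library. Klrb1b, a lectin-like receptor gene of natural killer and T cells, had 10.8 and 9.26 CPM in CD69+CD103+ libraries and no count in either 1_02 library. Against a floor of 3 counts over both 1_02 libraries (0.33 CPM) it was at least 30.5-fold higher (edgeR adjusted p = 0.0231). Cd7, a T and natural killer cell surface gene, had 109 and 66.6 CPM in CD69+CD103+ libraries, against 25.1 and 28.3 CPM in 1_02 libraries (log2 1.71 ± 0.32, edgeR adjusted p = 0.0336). In these genes, too, no 1_02 library reached a CD69+CD103+ library. The call of Klrb1b ended when any single library of the 4 was left out (edgeR adjusted p from 0.0538 to 0.117), and those of Fcer1g and Cd7 each ended in 3 of these 4 fits (highest edgeR adjusted p 0.147 and 0.289).

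The interferon-induced membrane protein genes Ifitm1 and Ifitm2 were higher by 0.93 ± 0.19 and 0.91 ± 0.18 on the log2 scale (edgeR adjusted p = 0.0491 and 0.0422). Ifitm1 had 2354 and 1904 CPM in CD69+CD103+ libraries, against 1204 and 1033 CPM in 1_02 libraries. Ifitm2 had 755 and 576 CPM in CD69+CD103+ libraries, against 328 and 379 CPM in 1_02 libraries. These are close copies whose reads may be shared, and both calls ended when any single library of the 4 was left out. Nfic, a transcription factor gene of the nuclear factor I family, had 38.3 and 73.3 CPM in CD69+CD103+ libraries, against 11.9 and 19.6 CPM in 1_02 libraries (log2 1.81 ± 0.36, edgeR adjusted p = 0.0422), and lost its call without the first 1_02 or the second CD69+CD103+ library (edgeR adjusted p = 0.316 and 0.631). Tyrobp, the gene of a signalling chain like that of Fcer1g, had 6.81 and 5.55 CPM in CD69+CD103+ libraries, against 0 and 0.343 CPM in 1_02 libraries (edgeR adjusted p = 0.682). Klrb1c had 0.717 and 0.0882 CPM in CD69+CD103+ libraries and no count in 1_02 libraries. Of the 8 natural killer and innate lymphoid markers, 5 had positive log2 fold changes and 3 negative ones (Eomes, Il1rl1 and Klrk1). The median was 0.046 over the 6 at a mean of 10 CPM or more.

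Genes linked to tissue residency other than Itgae were not called. Here and in the lists below, this does not show equal levels, since the fit missed most simulated 2-fold differences. Of 30 tested residency genes, 1 was higher and 0 lower, and at an unadjusted p under 0.05 there were 7 higher and 0 lower. For this list and those below, the shares of all genes tested at that level were 4.81% higher and 1.46% lower. The list median was 0.15, beside 0.06 over all genes. Rgs2, a regulator of G protein signalling, had 356 and 331 CPM in CD69+CD103+ libraries, against 154 and 237 CPM in 1_02 libraries (log2 0.81 ± 0.18, edgeR adjusted p = 0.0945). Cd101, a surface protein gene found on skin and gut TRM, had 16.5 and 29.7 CPM in CD69+CD103+ libraries, against 2.14 and 6.52 CPM in 1_02 libraries (log2 2.35 ± 0.53, edgeR adjusted p = 0.0963). Both genes lay higher without overlap but missed the threshold, and DESeq2 called 3 genes of the list higher. Values lay close together for Cxcr6, a chemokine receptor of skin TRM, at 512 and 684 CPM in CD69+CD103+ libraries and 574 and 672 CPM in 1_02 libraries, and for Runx3, a transcription factor of CD8 residency, at 73.1 and 77.0 CPM in CD69+CD103+ libraries and 94.3 and 64.7 CPM in 1_02 libraries. Among the 22 members at a mean of 10 CPM or more, log2 fold changes ran from -0.89 (Prdm1) to 3.92 (Itgae).

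Of 28 tested genes of tissue exit and lymphoid recirculation, 0 were called by edgeR and 0 by DESeq2, and 4 were higher and 0 lower at an unadjusted p under 0.05. The median was 0.26. S1pr1, the receptor for the exit signal that CD69 opposes, had 114 and 90.9 CPM in CD69+CD103+ libraries and 137 and 81.8 CPM in 1_02 libraries, with overlapping values. Klf2, the transcription factor that drives S1pr1, had 82.9 and 90.5 CPM in CD69+CD103+ libraries, against 53.0 and 52.6 CPM in 1_02 libraries (log2 0.71 ± 0.27, edgeR adjusted p = 0.69). Ccr7, the lymph node homing receptor, had 263 and 281 CPM in CD69+CD103+ libraries, against 168 and 197 CPM in 1_02 libraries (edgeR adjusted p = 0.836). In the other day 2 subsets S1pr1 stood at 390 and 377 CPM (1_04) and at 493 and 398 CPM (1_05). Members at a mean of 10 CPM or more ran from -0.94 (Cx3cr1) to 1.08 (Samhd1).

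No gene of the remaining T cell lists was called in either direction. Of 24 genes of the TGF-beta pathway, 1 had an unadjusted p under 0.05 (Ldlrad4, an inhibitor of that pathway, at 38.1 and 56.1 CPM in CD69+CD103+ libraries against 3.37 and 20.8 CPM in 1_02 libraries, edgeR adjusted p = 0.28), and DESeq2 called 1 higher. Of 37 genes of T cell receptor activation, 2 were higher and 2 lower at an unadjusted p under 0.05, with a median of 0.02, and DESeq2 called 1 higher. Of 48 proliferation genes, 0 were higher and 2 lower at that level, and the median was -0.23. Cenpf, a kinetochore gene, had 4.66 and 9.35 CPM in CD69+CD103+ libraries, against 23.9 and 21.8 CPM in 1_02 libraries (edgeR adjusted p = 0.688). Of 39 interferon response genes, 1 was higher and 1 lower at that level, with a median of 0.23, and DESeq2 called 0 in the proliferation and interferon lists. Slc2a3, a glucose transporter gene of the glycolysis list, had 25.3 and 34.6 CPM in CD69+CD103+ libraries, against 89.1 and 81.6 CPM in 1_02 libraries (log2 -1.51 ± 0.34, edgeR adjusted p = 0.0956). Dusp1, a phosphatase gene of the glucocorticoid and stress lists, had 141 and 130 CPM in CD69+CD103+ libraries, against 62.4 and 86.1 CPM in 1_02 libraries (log2 0.87 ± 0.20, edgeR adjusted p = 0.0963).

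In 7 further T cell lists, edgeR and DESeq2 each called 0 genes: 23 inhibitory receptors, 14 costimulatory genes, 30 cytokine receptors, 34 transcription factors, 32 genes of lipid metabolism, 22 of survival and death and 31 of adhesion and cytoskeleton. At an unadjusted p under 0.05 the inhibitory receptors had 3 higher and 1 lower, the cytokine receptors 3 and 1, the lipid genes 2 and 0, the survival genes 2 and 1, the transcription factors 1 and 0, and the other 2 lists 0. Of 28 glucocorticoid target genes, 4 were higher and 1 lower at an unadjusted p under 0.05, of 33 stress and dissociation genes 5 and 0, and of 23 glycolysis genes 0 and 1, with medians of 0.25, 0.12 and 0.01, and DESeq2 called 3, 1 and 1 of them. Markers of CD4 and regulatory T cells (9 tested), of gamma delta and unconventional T cells (7), of mast cells (5), of B cells (1) and of endothelial cells and melanocytes (9) gave 0 calls by edgeR and 0 by DESeq2. Of these markers, 3 were past an unadjusted p of 0.05 (2 higher, 1 lower). No call was possible for 3 mast cell markers and 3 endothelial and melanocyte markers, which had no count in any of the 4 libraries. In each of these lists only Kit reached a mean of 10 CPM.

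**Figure D3:**
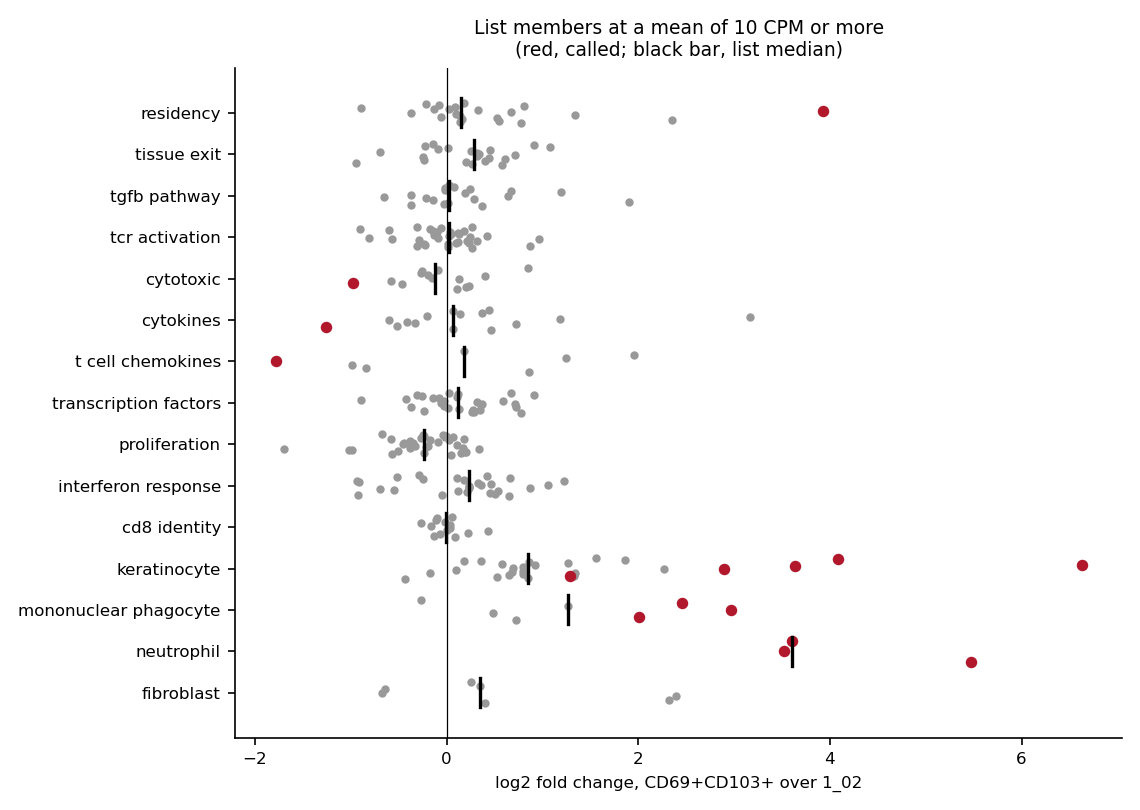
Log2 fold change (x axis, day 2 CD69+CD103+ over 1_02) of the tested members, at a mean of 10 CPM or more, of 15 gene lists (rows); points are genes, red where called, and the black bar is the median of the genes drawn. T cell lists lie around 0 with single called genes, and the keratinocyte, mononuclear phagocyte and neutrophil lists lie to the right, with medians of 0.85, 1.26 and 3.60.

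Keratinocytes, the epithelial cells of the epidermis, had the marker list with the most called genes. Of 30 tested keratinocyte markers, 5 were higher (Krt6a, Krt6b, Krt17, Sprr1b and Dmkn) and 0 lower, beside 0.204% called higher over all genes tested. The list median was 0.89, and 24 of the 30 had libraries that did not overlap, all of them higher in CD69+CD103+ cells, beside 21.6% of all genes tested. Summed over the list, levels were 7570 and 11200 CPM in CD69+CD103+ libraries, against 4970 and 4030 CPM in 1_02 libraries. The markers were therefore present in all 4 libraries. The sum was 6160 and 6910 CPM in 1_04, 9530 and 9190 CPM in 1_05, and 3280 to 9190 CPM in TRM libraries of day 11 and day 42.

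Krt6a, a keratin gene of wounded and inflamed epidermis, had 803 and 1164 CPM in CD69+CD103+ libraries, against 78.4 and 79.9 CPM in 1_02 libraries (log2 3.63 ± 0.43, edgeR adjusted p = 0.00106). Krt6b had 242 and 341 CPM in CD69+CD103+ libraries, against 6.73 and 0.171 CPM in 1_02 libraries (log2 6.63 ± 0.86, edgeR adjusted p = 0.0041). Krt6a and Krt6b are nearly identical, so the division of reads between them is uncertain. Leaving out 1 of the 4 libraries moved the log2 value of Krt6b between 5.46 and 10.6, and its call ended without either CD69+CD103+ library (edgeR adjusted p = 0.059 and 0.105). The call of Krt6a ended without the first 1_02 library (edgeR adjusted p = 0.0819). Their partner Krt17 had 132 and 167 CPM in CD69+CD103+ libraries, against 25.4 and 15.1 CPM in 1_02 libraries (log2 2.89 ± 0.43, edgeR adjusted p = 0.0041). Sprr1b had 92.0 and 78.6 CPM in CD69+CD103+ libraries, against 8.57 and 2.06 CPM in 1_02 libraries (log2 4.09 ± 0.60, edgeR adjusted p = 0.0041). Sprr2h, which was in no list, had 17.1 and 22.6 CPM in CD69+CD103+ libraries and no count in 1_02 libraries, at least 60.3-fold higher (edgeR adjusted p = 0.00458). For keratins of resting epidermis the differences were smaller and not called. Krt14, of the basal layer, had 1311 and 1721 CPM in CD69+CD103+ libraries, against 990 and 757 CPM in 1_02 libraries (log2 0.80 ± 0.23, edgeR adjusted p = 0.364). Krt1, of the upper layers, had 85.6 and 99.1 CPM in CD69+CD103+ libraries and 135 and 73.9 CPM in 1_02 libraries, which overlapped. Dmkn, which encodes the secreted epidermal protein dermokine, had 289 and 458 CPM in CD69+CD103+ libraries, against 124 and 182 CPM in 1_02 libraries (log2 1.29 ± 0.26, edgeR adjusted p = 0.0422). Its call ended without the first 1_02 or the second CD69+CD103+ library (edgeR adjusted p = 0.342 and 0.712).

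Genes of antigen presentation and of myeloid cells were also higher in CD69+CD103+ than in 1_02 libraries. Of 26 tested markers of mononuclear phagocytes, 4 were higher (H2-Aa, H2-Eb1, Cd74 and Lyz1) and 0 lower, beside 0.204% of all genes called higher. The list median was 1.26 over the 7 members at a mean of 10 CPM or more and 3.19 over all 26. Of the 26, 5 had no count in either 1_02 library, the shallower pair, and 1 of these (Emr1, chosen after its values were seen) had none in the CD69+CD103+ libraries either. Summed levels were 781 and 755 CPM in CD69+CD103+ libraries, against 256 and 295 CPM in 1_02 libraries. The sum was 479 and 474 CPM in 1_04, and 995 and 740 CPM in 1_05, on both sides of the CD69+CD103+ values. In TRM libraries of day 11 and day 42 it ran from 499 to 1420 CPM. H2-Aa, an MHC class II chain gene, had 155 and 142 CPM in CD69+CD103+ libraries, against 22.6 and 15.6 CPM in 1_02 libraries (log2 2.97 ± 0.34, edgeR adjusted p = 0.000341). H2-Eb1 had 127 and 101 CPM in CD69+CD103+ libraries, against 14.1 and 26.6 CPM in 1_02 libraries (log2 2.46 ± 0.37, edgeR adjusted p = 0.0041), and Cd74, the invariant chain gene, had 49.7 and 51.2 CPM in CD69+CD103+ libraries, against 14.7 and 10.6 CPM in 1_02 libraries (log2 2.00 ± 0.33, edgeR adjusted p = 0.0108). These 3 called genes of the MHC class II pathway were all higher without overlap. H2-Ab1, H2-DMa and H2-DMb1 of the same pathway were also higher but missed the threshold (edgeR adjusted p = 0.183, 0.77 and 0.75). H2-Aa kept its call when any single library of the 4 was left out, H2-Eb1 lost it in 1 of these fits and Cd74 in 2 (highest edgeR adjusted p 0.0507 and 0.0838). Lyz1, a lysozyme gene in the phagocyte list, had 324 counts in CD69+CD103+ libraries and 3 counts in 1_02 libraries. Its ratio was 43.7 per library size (95% exact interval 14.8 to 213, counting error only), with an edgeR adjusted p of 0.0317. Its call ended without the second 1_02 or the second CD69+CD103+ library (edgeR adjusted p = 0.113 and 0.0593), and the log2 value moved between 3.97 and 9.62 as single libraries were left out. It shares sequence with Lyz2, so its count is uncertain. Lyz2 itself had 0.0897 and 3.17 CPM in CD69+CD103+ libraries and no count in 1_02 libraries (edgeR adjusted p = 0.83). Langerhans cell marker Cd207 had 5.29 and 3.62 CPM in CD69+CD103+ libraries, against 0 and 0.171 CPM in 1_02 libraries (edgeR adjusted p = 0.179).

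Of 9 tested neutrophil markers, 3 were higher (Cxcl2, S100a8 and S100a9) and 0 lower, beside 0.204% of all genes called higher. The median was 3.60 over the 3 at a mean of 10 CPM or more and 5.44 over all 9, of which 2 had no count in 1_02 libraries. Cxcl2, a chemokine gene that draws neutrophils and that several skin cell types can make, had 40.1 and 45.1 CPM in CD69+CD103+ libraries, against 0.306 and 1.37 CPM in 1_02 libraries (log2 5.47 ± 0.64, edgeR adjusted p = 0.000341). S100a8 had 79.9 and 65.6 CPM in CD69+CD103+ libraries, against 9.49 and 3.43 CPM in 1_02 libraries (log2 3.53 ± 0.62), and S100a9 had 38.5 and 64.2 CPM in CD69+CD103+ libraries, against 2.75 and 5.49 CPM in 1_02 libraries (log2 3.60 ± 0.64), both at an edgeR adjusted p of 0.0336. Each lost its call in 3 of the 4 fits that left out 1 library (highest edgeR adjusted p 0.129 for S100a8 and 0.321 for S100a9). These calcium-binding protein genes are also made by inflamed keratinocytes. Summed over the list, levels were 197 and 223 CPM in CD69+CD103+ libraries, against 14.1 and 23.7 CPM in 1_02 libraries. The sum in the other day 2 subsets was 117 and 152 CPM (1_04) and 147 and 156 CPM (1_05). Of 18 fibroblast markers 0 were called, with 3 higher at an unadjusted p under 0.05 and 2 called by DESeq2, and summed levels overlapped, at 177 and 301 CPM in CD69+CD103+ libraries and 271 and 108 CPM in 1_02 libraries.

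**Figure D4:**
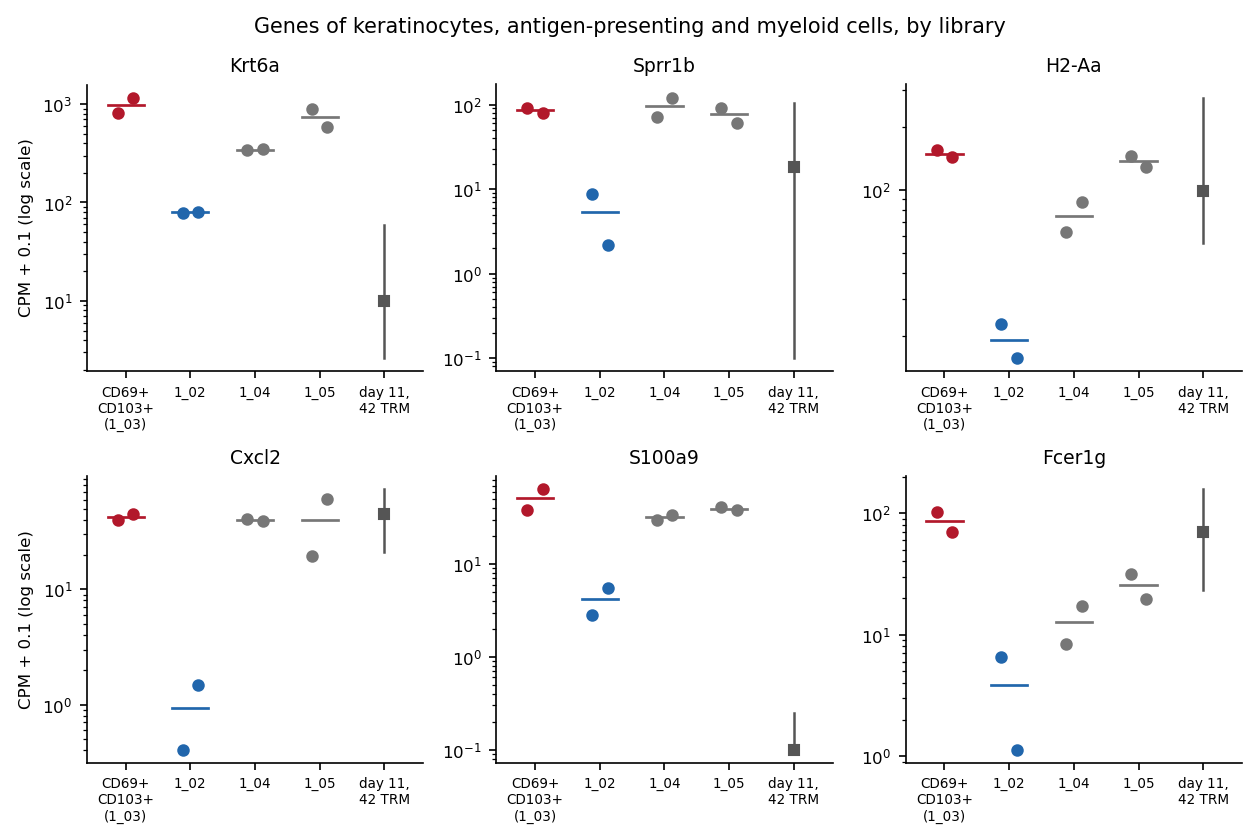
CPM plus 0.1 on a log scale (y axis) of Krt6a, Sprr1b, H2-Aa, Cxcl2, S100a9 and Fcer1g in each library; points are libraries and short lines means of 2 for CD69+CD103+ (red), 1_02 (blue), 1_04 and 1_05 (grey), and the square and line at the right are the median and range of the 8 TRM libraries. All 6 genes lie lowest in 1_02 among the day 2 subsets, and S100a9 reaches at most 0.148 CPM in the TRM libraries.

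The keratinocyte, phagocyte and neutrophil lists held 30, 26 and 9 of the 12236 genes tested. In all, 12 of the 25 genes called higher were members of these lists, and 13 were not. Of the 4 genes called lower, 0 were members. With the genes of 7 lists of other cell types left out of the fit, 3 genes were called higher (Itgae, Gpr56 and Sprr2h) and 1 lower (Ccl5). The log2 values of the 17 called genes left in that fit moved by at most 0.006, and the other 13 had an edgeR adjusted p from 0.0515 to 0.0776. The part that RNA from other cells has in these differences was not tested.

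The remaining called genes belong to no list. Il33, an alarmin gene that keratinocytes and stromal cells are known to make, had 29.9 and 22.2 CPM in CD69+CD103+ libraries, against 2.75 and 1.54 CPM in 1_02 libraries (log2 3.62 ± 0.72, edgeR adjusted p = 0.0422). Fscn1, which encodes an actin-bundling protein of mature dendritic cells and other motile cells, had 13.2 and 14.3 CPM in CD69+CD103+ libraries and no count in 1_02 libraries, at least 41.7-fold higher (edgeR adjusted p = 0.0336). Col27a1, a fibrillar collagen gene, had 38.4 and 26.6 CPM in CD69+CD103+ libraries and no count in 1_02 libraries, at least 98.4-fold higher (edgeR adjusted p = 0.0495). All 3 lost their call when any single library of the 4 was left out. Mgrn1, a ubiquitin ligase gene, had 142 counts in CD69+CD103+ libraries and 2 counts in 1_02 libraries, a ratio of 28.7 (95% exact interval 7.8 to 239, counting error only; edgeR adjusted p = 0.0442). Its call ended in 3 of the 4 fits that left out 1 library (highest edgeR adjusted p 0.382), with log2 values from 3.70 to 8.39. In the other direction Beta-s (Hbb-bs, adult beta globin), a red cell gene, had 1.26 and 2.47 CPM in CD69+CD103+ libraries, against 64.0 and 40.8 CPM in 1_02 libraries (log2 -4.80 ± 0.91, edgeR adjusted p = 0.0336). Its call, too, ended in 3 of these 4 fits (highest edgeR adjusted p 0.315). Beta globin has close copies, and its count is uncertain.

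Both subsets were then set against the mean of 1_04 and 1_05. CD69+CD103+ cells differed from that mean in 75 genes (0.613%), 54 higher and 21 lower, and the 1_02 subset in 146 genes (1.19%), 61 higher and 85 lower. The first count was 25 and 26 without either CD69+CD103+ library, 47 without the second 1_04 library and 44 without the second 1_05 library, and DESeq2 gave 217. The second was 63 without the first 1_02 library and 96 without the second 1_05 library, and DESeq2 gave 481. These 2 comparisons share the 1_04 and 1_05 libraries with each other, and each shares its first subset with the comparison above, so they are no independent support. Of the 29 called genes, 5 (Ccl5, Gpr56, Ifitm2, Lyz1 and Col27a1) also differed from that mean in CD69+CD103+ cells and not past the threshold in 1_02, and 16 did so the other way round. In 2 (Itgae and Ifng) both subsets passed, and in 6 neither did. A difference from the mean need not hold against each of 1_04 and 1_05. Lyz1 had 14.4 and 9.78 CPM in 1_05, near the 12.6 and 16.1 CPM of CD69+CD103+ libraries, and 0.205 and 0.213 CPM in 1_04. Itgae differed by 2.199 ± 0.315 in CD69+CD103+ cells (log2, edgeR adjusted p = 0.00146) and by -1.72 ± 0.41 in 1_02 (edgeR adjusted p = 0.0452). Its level in 1_05 (92.5 and 77.1 CPM) overlapped that of CD69+CD103+ libraries (70.7 and 88.7 CPM), while 1_04 lay at 5.32 and 1.07 CPM.

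Ccl5 lay apart in the CD69+CD103+ cells. It differed from the mean of 1_04 and 1_05 by -2.02 ± 0.18 in CD69+CD103+ cells (log2, edgeR adjusted p = 8.75e-06) and by -0.24 ± 0.17 in 1_02 (edgeR adjusted p = 0.596). Levels were 1719 and 1649 CPM in 1_04, 683 and 538 CPM in 1_05 and 69.9 to 325 CPM in the 8 TRM libraries, and no day 2 library other than the CD69+CD103+ ones lay within that TRM range. Ifng was above the mean of 1_04 and 1_05 in both subsets, by 1.15 ± 0.21 in CD69+CD103+ cells (edgeR adjusted p = 0.0107) and by 2.41 ± 0.21 in 1_02 (edgeR adjusted p = 2.71e-06). Its levels were 187 and 198 CPM in 1_04 and 113 and 171 CPM in 1_05. From high to low, the order of Ifng on day 2 was thus 1_02, CD69+CD103+, 1_04 and 1_05, and the last 2 were not tested against each other. Gzma differed by -0.34 ± 0.16 in CD69+CD103+ cells (edgeR adjusted p = 0.631) and by 0.63 ± 0.16 in 1_02 (edgeR adjusted p = 0.0552), so neither passed.

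Gpr56 was above the mean of 1_04 and 1_05 by 1.53 ± 0.23 in CD69+CD103+ cells (edgeR adjusted p = 0.00251) and differed by -0.59 ± 0.27 in 1_02 (edgeR adjusted p = 0.389). Ifitm2 gave 0.93 ± 0.15 in CD69+CD103+ cells (edgeR adjusted p = 0.00389) and 0.02 ± 0.16 in 1_02 (edgeR adjusted p = 1). It stood at 623 and 526 CPM in 1_05, near CD69+CD103+ libraries (755 and 576 CPM), and at 207 and 217 CPM in 1_04. Cd7 gave the other arrangement. It differed by -0.64 ± 0.27 in CD69+CD103+ cells (edgeR adjusted p = 0.558) and by -2.35 ± 0.30 in 1_02 (edgeR adjusted p = 0.000372). Krt6a, H2-Aa and Cxcl2 were arranged like Cd7. Krt6a differed by 0.97 ± 0.33 in CD69+CD103+ cells (edgeR adjusted p = 0.362) and by -2.67 ± 0.39 in 1_02 (edgeR adjusted p = 0.00201). H2-Aa differed by 0.56 ± 0.26 in CD69+CD103+ cells (edgeR adjusted p = 0.637) and by -2.41 ± 0.32 in 1_02 (edgeR adjusted p = 0.000398). Cxcl2 differed by 0.10 ± 0.40 in CD69+CD103+ cells (edgeR adjusted p = 1) and by -5.37 ± 0.62 in 1_02 (edgeR adjusted p = 8.51e-05). Beta-s differed by -0.33 ± 0.73 in CD69+CD103+ cells (edgeR adjusted p = 1) and was higher by 4.47 ± 0.68 in 1_02 (edgeR adjusted p = 0.00168).

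No called gene changed direction under another setting it was tested in, but many lost their call. Of 336 values of the 29 called genes under other settings of the fit, 0 reversed, 216 kept the call and 120 missed the threshold. In the fit on the 4 libraries alone, 1 gene was called (Krt6a), while Itgae, Ccl5 and Sprr2h were called under each of the other 11 settings. Cxcl2, H2-Aa, Krt17 and Sprr1b were called under each of the other 10 in which they were tested, since the fit without other cell types' genes leaves them out. When single libraries of the 4 were left out, 8 of the 29 genes kept their call in all 4 fits and 8 in none.

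**Figure D5:**
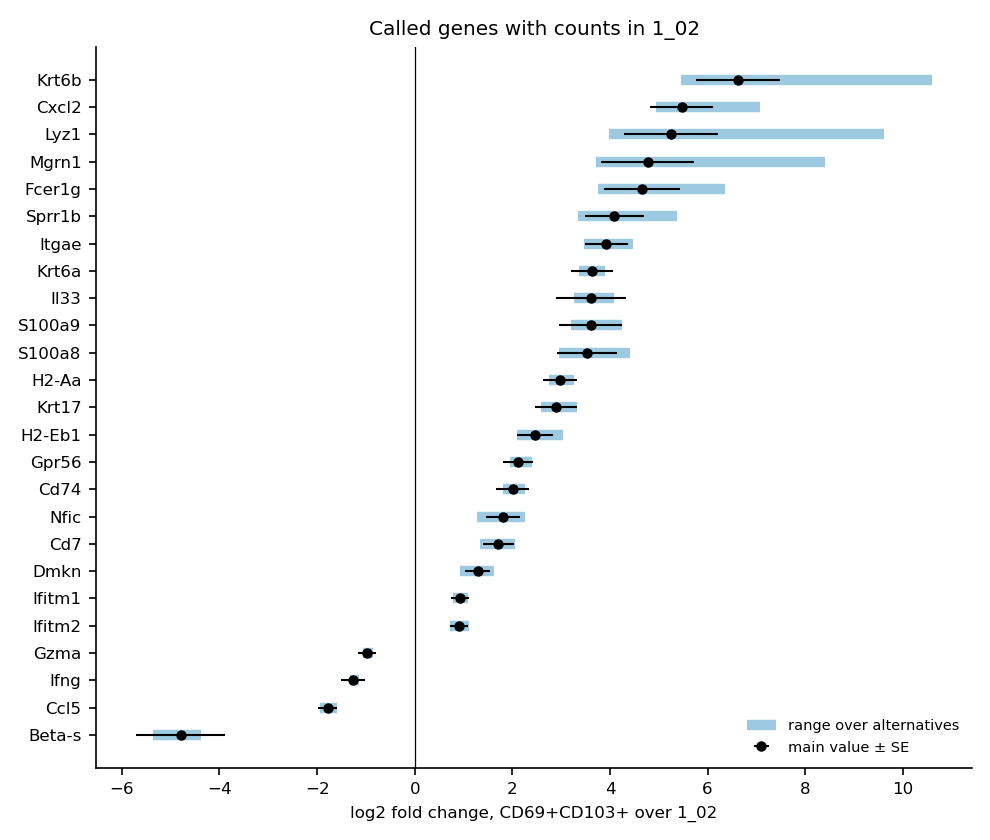
Log2 fold change (x axis, day 2 CD69+CD103+ over 1_02) of the 25 called genes with a count in 1_02 (rows); points are main values with SE and light bars the range over the other settings of the fit, leaving out single libraries included. No bar crosses 0, and the widest bars belong to Krt6b, Lyz1 and Mgrn1, genes with few counts in 1 or both of the 1_02 libraries.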

How the data were processed

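CEL-seq2 libraries were made from TRIzol-extracted RNA of sorted CD8 T cells, per the labels' protocols. The deposited table of the second experiment holds counts, raw reads per gene, for 16 libraries under 8 header codes. The submitters' processing notes name bcl2fastq 2.2, BWA 0.7.15, HTSeq and GRCm38; collapsing by molecular barcode and the use of strand are not given in the sources used here. CEL-seq2 reads the 3′ end of transcripts, so levels were compared between libraries and not between genes. Code 1_03 was read as day 2 CD69+CD103+ because it is the only day 2 code whose second part recurs in the day 11 and day 42 sets, which hold CD69+CD103+ cells alone.

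Of 18052 gene rows, 16843 were placed on GENCODE M21 (GRCm38), and 7 rows of external control transcripts (0 to 3 reads per library) were left out. With edgeR 4.0.16 (R 4.3.3), filterByExpr on the code chose the genes, TMM scaled the libraries, and 8 code means were fitted to all 16 libraries, which share 1 estimate of the spread (common dispersion 0.327). Contrasts used the robust quasi-likelihood F test with Benjamini-Hochberg adjustment over all genes tested. The SE is the size of the log2 fold change over the square root of F. A floor of 3 counts per library was 0.269 and 0.265 CPM in CD69+CD103+ libraries, against 0.918 and 0.514 CPM in 1_02 libraries, and covers counting error only.

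The comparison and the 31 gene lists (20 of function, 11 of cell type markers) were chosen with earlier results of these data known; the results of 1 function list are not reported here. Named were Itgae and Cd69, the 12 called genes per direction with the largest change (both libraries of the higher group at 10 CPM or above, no overlap), up to 4 called members of each list, and the residency and exit lists by count and range. Alternatives were median-of-ratios size factors, no low-count filter, DESeq2 1.42.0, fits on 8 or 4 libraries, mitochondrial genes or other cell types' genes left out, and each library left out. Thinning the CD69+CD103+ libraries to 1_02 depth was added after seeing the data. Simulated data with known differences were used to test the fit. Where 100 genes had been given a 2-fold difference, it recovered 7. At 4-fold it recovered 45 out of 100. Its calls numbered 54, and 2 of them were false. A gene or list without a call may therefore still differ by such amounts.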

Additional observations from a re-analysis of the deposited data

Results flagged for a closer look

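In 4 of the 22 genes named by the rule, of which 21 were called, 1 of the 8 TRM libraries of day 11 and day 42 lay far from the other 7. Chance flags about 1 in 20 groups of normally distributed values. The 8 libraries come from several codes, and Sprr2h and Krt6b lay near 0 in most of them, so that rate is a rough guide only. Sprr2h reached 46.9 CPM in 1 library of code 3_03, next to 8.08 CPM in the next highest library and a median of 0.167 CPM. Krt6a reached 58.4 CPM in the other library of that code, next to 23.3 CPM. Krt6b reached 3.2 CPM in a library of code 2_03, next to 1.26 CPM. S100a9 stood at 0.148 CPM in a library of code 4_03 and at 0 in the other 7. That value is 1 read, under the floor of 3 counts, and with 7 libraries at 0 any read sets it apart, so the chance rate does not apply to it. None of these libraries enters the day 2 contrast except through the shared estimate of the spread.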

How the results depend on the processing

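Without the filter on low counts, 135 genes were called in CD69+CD103+ against 1_02 (117 higher, 18 lower), 422 in 1_02 against the mean of 1_04 and 1_05 (166 higher, 256 lower) and 193 in CD69+CD103+ against that mean (134 higher, 59 lower). DESeq2 called 88 (72 higher, 16 lower), 481 (193 higher, 288 lower) and 217 (121 higher, 96 lower). For CD69+CD103+ against 1_02, the fit on the 4 libraries alone called 1 gene (1 higher, 0 lower) and had 2 residual degrees of freedom, and 768 genes had an unadjusted p under 0.05 in the fit on all libraries. Leaving out other cell types' genes gave 4 (3 higher, 1 lower), with fewer small p-values left to adjust over. Leaving out 1 library gave 11 to 46 calls (10 to 40 higher, 1 to 6 lower), with 11 and 17 when either CD69+CD103+ library was left out, and 18 and 46 for the 1_02 libraries. For 1_02 against the mean it gave 63 to 177 (28 to 69 higher, 35 to 108 lower), and for CD69+CD103+ against the mean 25 to 64 (19 to 49 higher, 4 to 15 lower). The lone library left in a code is assumed to vary like the others. Median-of-ratios factors (24 calls), 8 day 2 libraries (24), no mitochondrial genes (29) and thinned CD69+CD103+ libraries (27) stayed within 1.5 times the 29 calls, and 23, 20, 29 and 27 of the same genes were called. The cause of the other shifts was not tested. No paired analysis was possible because the headers carry no replicate letter. The shallower 1_02 libraries limit genes near 1 CPM.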
